A study of Mus musculus with 5 samples.

Results

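The genes described here encode the receptors through which colony-stimulating factors and related growth factors act on myeloid cells. There are 8 of them (Csf1r, Csf3r, Csf2ra, Csf2rb, Csf2rb2, Il3ra, Flt3 and Kit) among the 23234 gene symbols of the deposited tables, and they were taken by symbol, as a family of receptors and not by a threshold on their values. All 8 symbols were found in each of the 5 tables. The data are RNA-seq libraries of cells sorted from the bone marrow (BM) of Ym1-Venus mice, 1 library for each of 5 populations. All animals were C57BL/6, 7 weeks old and heterozygous for the Venus reporter (genotype +/Ym1Venus), which makes cells that express the chitinase-like protein Ym1 fluorescent. Ym1+Ly6Chi monocytes (Ly6C+CD115+Venus+), Ym1-Ly6Chi monocytes (Ly6C+CD115+Venus-) and neutrophils (Ly6G+) came from mice 48 h after intravenous lipopolysaccharide (LPS, 100 µg per mouse), a bacterial cell wall product that causes systemic inflammation. Naïve monocytes (Ly6C+CD115+Venus-) and naïve neutrophils (Ly6G+) came from untreated mice. The sources used here do not say how many animals each library pools. CD115 is the protein made from Csf1r, so the gate that defined the monocytes used a product of one of the genes described.

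M-CSF acts through Csf1r and drives the survival and maturation of monocytes and macrophages, whereas G-CSF acts through Csf3r and drives the production and release of neutrophils. GM-CSF, IL-3 and IL-5 each bind a private alpha chain (Csf2ra and Il3ra for the first pair) and signal through a shared beta chain, Csf2rb, and mice carry a second beta chain, Csf2rb2, that serves IL-3. Flt3 and Kit are receptors of stem and progenitor cells that are lost as most myeloid cells mature, with mast cells keeping Kit and dendritic cells keeping Flt3. Csf1r, Flt3 and Kit are receptor tyrosine kinases, while the others lack a kinase of their own and signal through Janus kinases and STAT proteins.

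Levels are given in FPKM, fragments per kilobase of transcript scaled to sequencing depth, as the authors deposited them. Populations were compared by the difference in log2(FPKM + 1) for all genes that reached FPKM 1 in one or both libraries, and a gene was counted as higher or lower when that difference was at least 1, that is, at least 2-fold on the scale of FPKM + 1. This scale understates the change of genes at low levels. As no population has a second library, there is no replicate error, no p-value was computed, and each difference describes a pair of libraries. The depth is not stated. Steps between the lowest FPKM values put the libraries at 44.7% to 97.2% of the depth of the Ym1+ library, and with GENCODE transcript lengths at roughly 4.26 to 9.54 fragments per FPKM and kilobase. The 95% Poisson intervals given below rest on that rough estimate and cover counting error only. Defining markers were checked against the sort labels. The monocyte gene Ccr2 was at 434 to 499 in the 3 monocyte libraries and 0.99 to 1.13 in the neutrophil libraries, and the neutrophil gene Retnlg was at 10.6 to 13.9 and at 5157 to 12795 in the same order. Retnlg does not stand for its marker list, since 13 of the 14 neutrophil genes counted as higher in Ym1+ than in Ym1- cells. The FPKM of S100a8, for example, was 7993, 1107 and 595 for Ym1+, Ym1- and naïve monocytes, respectively. Ly6g, the gene of the neutrophil gate, was not among the symbols found.

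**Figure D1:**
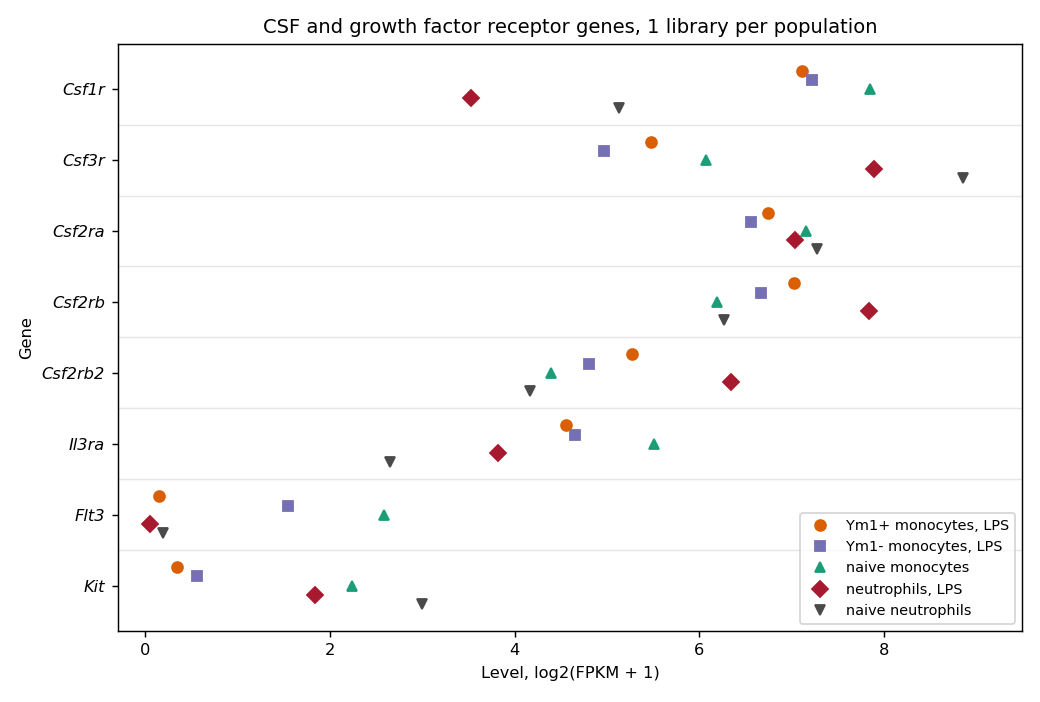
Level of the 8 receptor genes as log2(FPKM + 1) plotted horizontally, each point being a single library without replicates. Csf1r is highest in the 3 monocyte libraries, Csf3r in both neutrophil libraries, Csf2rb and Csf2rb2 in neutrophils after LPS, and Flt3 and Kit stay at an FPKM of 7.00 or less everywhere.

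The receptors for M-CSF and G-CSF separated monocytes from neutrophils, and both were lower after LPS than in naïve cells of the same lineage. Csf1r had an FPKM of 230.1 in naïve monocytes, 148 in Ym1- monocytes after LPS and 138 in Ym1+ monocytes after LPS, and of 33.9 in naïve neutrophils and 10.5 in neutrophils after LPS. Every monocyte library therefore lay above every neutrophil library for Csf1r, which is also what the CD115 gate selected for. Csf3r was highest in the other lineage, with 464 in naïve neutrophils, 237 in neutrophils after LPS, 66.1 in naïve monocytes, 43.5 in Ym1+ monocytes and 30.2 in Ym1- monocytes. The monocytes thus carried Csf3r transcripts at 6.52% to 14.3% of the naïve neutrophil level.

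Between naïve neutrophils and naïve monocytes, Csf1r differed by -2.73 and Csf3r by 2.79 on the log2 scale. The corresponding differences between neutrophils and Ym1+ monocytes after LPS were -3.59 and 2.41. Across all genes these comparisons were shifted towards lower values in neutrophils, with medians of -0.79 over 10944 genes and -0.66 over 10520 genes, and S100a8 and S100a9 alone took 30.0% of the FPKM of naïve neutrophils and 27.7% after LPS. Relative to these medians, Csf1r differed by -1.94 and -2.93 and Csf3r by 3.58 and 3.08. Of the 8 receptors, 1 was higher in naïve neutrophils (Csf3r) and 3 were lower (Csf1r, Il3ra and Flt3), where 10.8% of all genes were higher and 42.7% lower (53.6% at least 2-fold apart). Flt3 passed the filter only through the naïve monocyte library. After LPS, 3 of the 7 receptors tested were higher in neutrophils than in Ym1+ monocytes (Csf3r, Csf2rb2 and Kit) and 1 was lower (Csf1r), against 9.53% and 36.4% of all genes (45.9% at least 2-fold apart). Kit passed the filter there only through the neutrophil library, and with TPM the difference of Csf2rb2 was no longer counted (0.60) while Il3ra was counted as lower (-1.22). The median over the receptors tested was -0.07 in the naïve pair and 0.80 in the pair after LPS. With median-of-ratios scaling, which removes most of the shift, the share of called genes that were higher in neutrophils was 42.6% rather than 20.2% in the naïve pair and 43.7% rather than 20.8% after LPS.

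The ratio of Csf1r to Csf3r within a library does not depend on how libraries are scaled. On FPKM, which is per length, Csf1r exceeded Csf3r 3.48-fold in naïve monocytes, 4.91-fold in Ym1- monocytes and 3.16-fold in Ym1+ monocytes. In neutrophils Csf3r exceeded Csf1r instead, 13.7-fold in naïve cells and 22.5-fold after LPS.

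**Figure D2:**
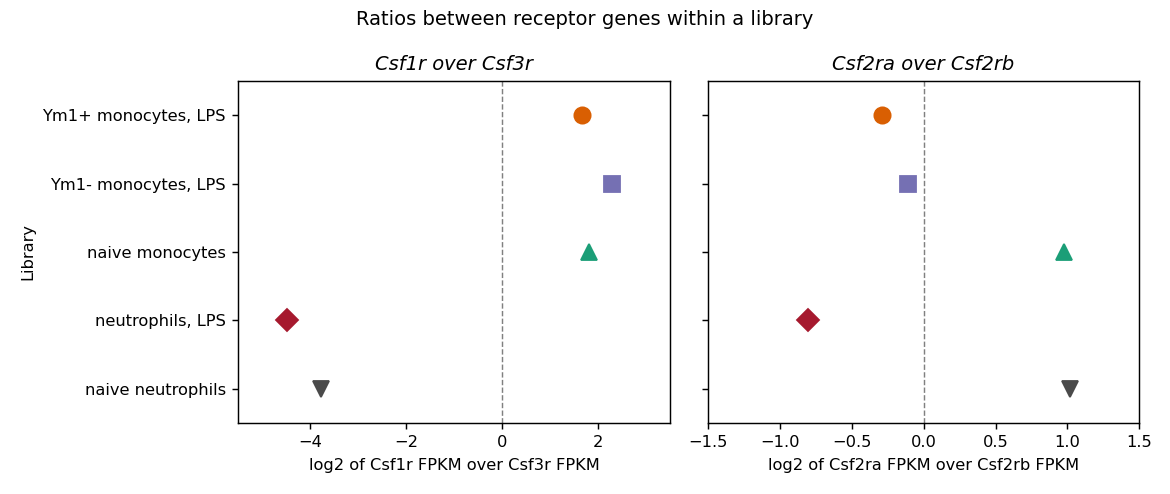
Ratios between receptor genes within each library, as log2 of one FPKM over another on the horizontal axes (the axes of the panels differ), with 1 point per library. Csf1r over Csf3r separates the 3 monocyte libraries (1.66 to 2.30) from both neutrophil libraries (-4.49 and -3.77), whereas Csf2ra over Csf2rb separates both naïve libraries (0.98 and 1.01) from the 3 libraries after LPS (-0.81 to -0.11).

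After LPS, Csf1r differed from naïve cells by -0.63 in Ym1- monocytes, by -0.74 in Ym1+ monocytes and by -1.60 in neutrophils, the last of which was counted as lower. Beside the neutrophil value, 4 of 8 tissue macrophage genes tested were also lower after LPS and 0 higher, where 5.35% of all genes were lower and 8.96% higher. The summed FPKM of that marker list was 84.8 in naïve neutrophils and 90.3 after LPS, and without Hmox1 it was 34.0 and 17.1. Ccr2 was near 1 in both, and the part of other cells in the Csf1r value was not tested. Csf3r differed by -1.10 in Ym1- monocytes, counted as lower, by -0.59 in Ym1+ monocytes and by -0.97 in neutrophils. The neutrophil value of Csf3r lay just short of the 2-fold limit and was past it with TPM and with median-of-ratios scaling (-1.09 and -1.02). Both monocyte comparisons use the same naïve library, so their likeness is not separate support.

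The GM-CSF receptor showed another arrangement, with beta chains that were higher after LPS in each lineage. Its alpha chain had a small range but was lower after LPS in each lineage, short of 2-fold. Csf2ra, the ligand-binding alpha chain, had an FPKM of 154 in naïve neutrophils, 142 in naïve monocytes, 129.9 in neutrophils after LPS, 106 in Ym1+ monocytes and 93.1 in Ym1- monocytes. The highest and the lowest library differed by 0.72 on the log2 scale, the smallest range of the 8 genes. Counting intervals of Csf2ra overlapped between naïve neutrophils and naïve monocytes (148 to 160.1 and 135 to 149). After LPS Csf2ra differed from naïve cells by -0.60 in Ym1- monocytes, -0.41 in Ym1+ monocytes and -0.24 in neutrophils. None of the 6 comparisons called Csf2ra, and the sign of its small differences between neutrophils and monocytes (0.12 and 0.29) turned with TPM (-0.28 and -0.20).

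Csf2rb, the beta chain shared by the GM-CSF, IL-3 and IL-5 receptors, had an FPKM of 227 in neutrophils after LPS, 129.8 in Ym1+ monocytes, 100.5 in Ym1- monocytes, 76.3 in naïve neutrophils and 72.0 in naïve monocytes. The 3 libraries after LPS all lay above both naïve libraries, whose counting intervals overlapped (73.8 to 78.9 and 69.0 to 75.2). Csf2rb2, the second beta chain, had 80.1, 37.6 and 26.9 in the same 3 libraries, 17.0 in naïve neutrophils and 19.97 in naïve monocytes, and so followed the same order among the libraries after LPS. Neutrophils after LPS exceeded naïve neutrophils by 1.56 for Csf2rb and 2.17 for Csf2rb2, both counted as higher. In monocytes after LPS the differences from naïve cells were 0.47 and 0.41 for the Ym1- and 0.84 and 0.88 for the Ym1+ library, all short of 2-fold.

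The balance of the chains differed accordingly, in a measure that library scaling cannot move, and both chains had a part in it. In Ym1- monocytes Csf2ra differed from naïve cells by more (-0.60) than Csf2rb did (0.47). Csf2ra exceeded Csf2rb 1.97-fold in naïve monocytes and 2.02-fold in naïve neutrophils. After LPS the ratio of Csf2ra to Csf2rb was 0.927 in Ym1- monocytes, 0.820 in Ym1+ monocytes and 0.572 in neutrophils, and in the Ym1- library the counting intervals of both chains overlapped (86.5 to 100.1 and 96.2 to 104.9). Csf2rb exceeded Csf2rb2 in every library, between 2.83-fold in neutrophils after LPS and 4.49-fold in naïve neutrophils. The beta chains are close copies of each other. In the GENCODE transcripts, 19.0% of all 50-base windows of Csf2rb2 and 7.20% of all 100-base windows occur letter for letter in Csf2rb. How the authors' counting divided such reads is not given, so the separate levels of Csf2rb and Csf2rb2 are uncertain to that extent.

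Csf2rb2 showed the largest difference after LPS among the receptors tested in neutrophils. Csf3r was lower in the same cells, short of 2-fold (-0.97), and Csf1r (-1.60) and Kit (-1.17) were lower by more. The upstream sequences of Csf2rb2 and Csf3r, a pair picked for comparison, are printed here. They are the 250 bases before the start of each gene, from RefSeq on GRCm38.p6, which is not the build of the files (mm9). Of the 8 receptors, 6 were matched to sequences (Csf3r, Csf2ra, Csf2rb2, Il3ra, Flt3 and Kit). Csf2rb had none, and Csf1r was left out by choice, so its upstream sequence was not searched. Capitals mark matches, on either strand, to TTCNNNGAA (the core bound by STAT proteins), to AGGAAG (a core bound by ETS factors such as PU.1) and to GCAAT (part of the site of C/EBP factors). The Csf2rb2 sequence is at chr15:78305722-78305971 on the minus strand, and the Csf3r sequence at chr4:126024409-126024658 on the plus strand.
Csf2rb2: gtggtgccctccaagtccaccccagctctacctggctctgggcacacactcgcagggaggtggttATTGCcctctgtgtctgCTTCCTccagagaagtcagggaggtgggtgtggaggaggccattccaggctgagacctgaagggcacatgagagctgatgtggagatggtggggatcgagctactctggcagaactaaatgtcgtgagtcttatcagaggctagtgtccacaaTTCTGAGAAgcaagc
Csf3r: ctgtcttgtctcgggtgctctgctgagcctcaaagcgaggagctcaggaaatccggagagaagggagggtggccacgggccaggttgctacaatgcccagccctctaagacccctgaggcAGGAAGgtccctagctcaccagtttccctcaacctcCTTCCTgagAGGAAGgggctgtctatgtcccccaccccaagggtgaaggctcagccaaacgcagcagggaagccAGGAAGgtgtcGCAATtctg
In Csf2rb2, the run TTCTGAGAA begins 15 bases before the start of the gene, beside 1 match each to the ETS and C/EBP letters. Csf3r held 4 matches to the ETS letters and 1 to the C/EBP letters, and none to the STAT letters. Among the 6 matched receptors the STAT letters occurred in Csf2rb2 alone, and 7.18% of 27025 gene starts hold them in a window of this length, compared with 29.2% for the ETS and 23.3% for the C/EBP letters. These matches describe letters, and no binding was measured.

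Il3ra, the alpha chain of the IL-3 receptor, was highest in monocytes, and it was lower after LPS in that lineage but higher in neutrophils. Its FPKM was 44.5 in naïve monocytes, 24.2 in Ym1- monocytes, 22.5 in Ym1+ monocytes, 13.1 in neutrophils after LPS and 5.28 in naïve neutrophils. All 3 monocyte libraries lay above both neutrophil libraries, and the counting intervals of Ym1- and Ym1+ monocytes overlapped (21.2 to 27.5 and 20.5 to 24.5). Naïve neutrophils differed from naïve monocytes by -2.86. After LPS the difference was -0.85 in Ym1- monocytes, -0.95 in Ym1+ monocytes and 1.17 in neutrophils, and of these only the last was counted. Per length, Csf2ra exceeded Il3ra 3.19-fold in naïve monocytes and 29.2-fold in naïve neutrophils, and after LPS the factor was 9.93 in neutrophils, 3.84 in Ym1- monocytes and 4.74 in Ym1+ monocytes.

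The progenitor receptors Flt3 and Kit were at low levels and were lower after LPS in the monocyte libraries. Flt3, the receptor for Flt3 ligand, had an FPKM of 5.02 in naïve monocytes, 1.92 in Ym1- monocytes and 0.11 in Ym1+ monocytes, or about 110, 30 and 4 fragments. The naïve library was highest and the Ym1+ library lowest, and the 3 counting intervals did not overlap (4.13 to 6.05, 1.30 to 2.75 and 0.031 to 0.293). In neutrophils Flt3 was at 0.14 in naïve cells and 0.034 after LPS, about 5 fragments and 1, too few to compare. Ym1- monocytes differed from naïve monocytes by -1.04, Ym1+ monocytes from naïve monocytes by -2.44, and Ym1+ from Ym1- monocytes by -1.39, all counted as lower. The first of these was -0.98 with median-of-ratios scaling and then no longer counted.

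Kit, the receptor for stem cell factor, had an FPKM of 7.00 in naïve neutrophils, 3.71 in naïve monocytes, 2.57 in neutrophils after LPS, 0.47 in Ym1- monocytes and 0.27 in Ym1+ monocytes. The library of naïve neutrophils was highest, at about 341 fragments, and both monocyte libraries after LPS were lowest, at about 11 and 13 fragments with overlapping intervals (0.246 to 0.881 and 0.138 to 0.444). After LPS Kit differed from naïve cells by -1.68 in Ym1- monocytes, -1.89 in Ym1+ monocytes and -1.17 in neutrophils, each counted as lower. Between naïve neutrophils and naïve monocytes it differed by 0.77, which was 1.36 with median-of-ratios scaling and then counted. In bulk libraries such as these, fewer cells of a type and less RNA per cell cannot be told apart.

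Other genes of stem and progenitor cells, and of cell types that use Flt3 or Kit, are given beside these values. Cd34, a surface marker of progenitors, had an FPKM of 20.3 in naïve monocytes, 4.92 in Ym1- monocytes and 0.97 in Ym1+ monocytes, the same order as Flt3. It was at 0.26 in naïve neutrophils and 0.54 after LPS, where Kit was at 7.00 and 2.57, so that the library with most Kit had least Cd34. Of the 14 stem and progenitor genes, which include Flt3 and Kit, Ym1- monocytes had 3 of 10 tested at lower and 2 at higher levels than naïve cells (median -0.59), and 5 of 9 were lower and 0 higher in Ym1+ monocytes (median -1.10), where the median over all genes was 0.00 and -0.06. Of all genes, 4.72% were lower and 2.86% higher in Ym1- monocytes, and 4.51% and 2.59% in Ym1+ monocytes. The lower genes of the list in Ym1- monocytes were Flt3, Kit and Cd34, which were also lower in Ym1+ monocytes. The summed FPKM of that list was 87.0 in naïve, 107 in the Ym1- and 59.4 in the Ym1+ library, and 65.6 in naïve neutrophils and 44.7 after LPS, and Mecom was listed at 0 in all 5 libraries. Without Ly6a, its most abundant gene in the monocyte libraries, the sum was 58.1 in naïve, 32.6 in Ym1- and 16.0 in the Ym1+ cells, and 40.9 and 27.7 in the naïve and LPS neutrophil libraries.

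Of 9 dendritic cell genes, Flt3 among them, the sum was 101 in naïve monocytes, 97.7 in the Ym1- and 75.0 in the Ym1+ library, and 6.44 and 13.4 in naïve neutrophils and neutrophils after LPS. Most of it was Bst2, at 63.0, 78.7 and 63.9 in the monocyte libraries. Cd209a was at 12.7 in naïve monocytes, 0.075 in the Ym1+ and 0 in the Ym1- library, while Ccr7 was listed at 0 everywhere. Of the mast cell and basophil genes, a list that holds Kit, Cma1 was listed at 0 in all libraries, Fcer1a was at most 0.12, Cpa3 at most 0.49 and Prss34 at most 0.87. Mcpt8 had an FPKM of 2.39, 1.68 and 0.90 for naïve, Ym1- and Ym1+ monocytes, respectively, the same order as Kit. Neutrophils had nearly level Mcpt8, with 1.24 before and 1.30 after LPS, whereas their Kit was lower after LPS. The sum of that list, 3.18 to 12.0 in monocytes and 259 to 329 in neutrophils, was nearly all Hdc in neutrophils. Platelet and megakaryocyte genes were highest in sum where Kit was highest, with a sum of 84.6 in naïve neutrophils against 20.7 after LPS, 24.2 in naïve monocytes, 6.86 in Ym1+ monocytes and 2.46 in Ym1- monocytes, and in Ym1- monocytes Pf4, Gp9 and Gp1bb were listed at 0. The part of these cell types in the Flt3 and Kit values was not tested.

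**Figure D3:**
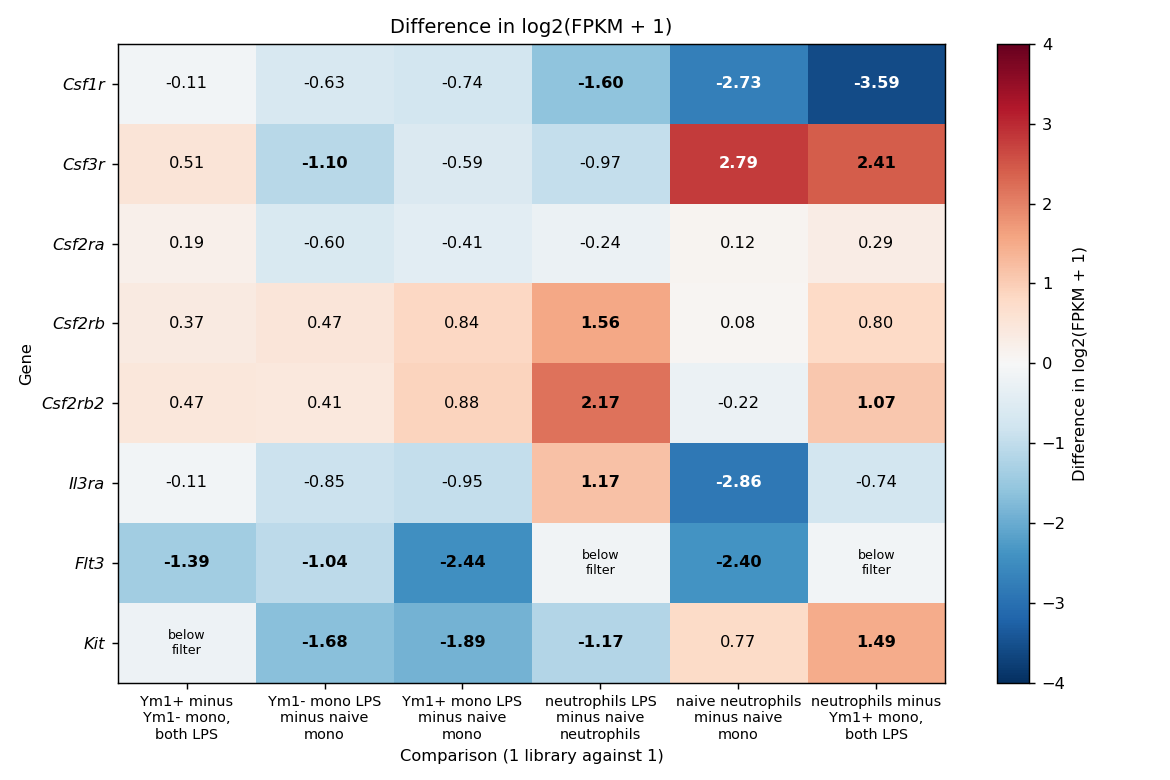
Difference in log2(FPKM + 1) for each receptor gene (rows) in each comparison of 1 library with another (columns), with differences of at least 1 in bold and genes under an FPKM of 1 in both libraries marked as below the filter. Csf2rb and Csf2rb2 are positive in the 3 columns of LPS against naïve cells (0.41 to 2.17), Csf1r, Csf3r, Csf2ra and Kit are negative in the same columns, and Il3ra is negative in monocytes and positive in neutrophils.

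Counted over all receptors, the comparison of Ym1- with naïve monocytes, both sorted as Venus-, had 3 of 8 lower (Csf3r, Flt3 and Kit) and 0 higher, where 4.72% of 10714 genes were lower and 2.86% higher (7.58% at least 2-fold apart). Ym1+ against naïve monocytes, where LPS and the Venus gate change together, had 2 of 8 lower (Flt3 and Kit) and 0 higher, against 4.51% and 2.59% of 10698 genes (7.1% apart). Kit in both comparisons, and Flt3 in the second, passed the filter only through the naïve library, so that their calls rest on which library was high. In neutrophils after LPS, 3 of 7 tested receptors were higher (Csf2rb, Csf2rb2 and Il3ra) and 2 lower (Csf1r and Kit), against 8.96% and 5.35% of 9583 genes (14.3% apart). Early granulocyte genes were higher in the same library for 7 of 8 tested, with 0 lower and a summed FPKM of 1045 against 280.1, and their part in the receptor values was not tested. The medians over the receptors tested were -0.74, -0.66 and -0.24 in these 3 comparisons, beside medians over all genes of 0.00, -0.06 and 0.07. With TPM, 51.1% rather than 62.6% of the genes called in neutrophils were higher after LPS.

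Between Ym1+ and Ym1- monocytes Flt3 was the receptor with a difference of at least 2-fold. Of 7 tested, 0 were higher and 1, Flt3, was lower, against 1.38% and 1.18% of 10489 genes (2.56% apart), and Flt3 passed the filter only through the Ym1- library. Csf1r and Il3ra were nearly level (-0.11 each). Csf3r, Csf2rb2, Csf2rb and Csf2ra were higher in the Ym1+ library by 0.51, 0.47, 0.37 and 0.19, short of 2-fold. In neutrophils after LPS the FPKM of these 4 genes was 237, 80.1, 227 and 129.9, above the Ym1+ library for each, although for Csf2ra the direction turned with TPM (-0.20). Neutrophil genes were higher in the same library, for 13 of 14 markers with 0 lower, and their summed FPKM was 16032 in the Ym1+ library, 2369 in Ym1- and 1398 in naïve monocytes, compared with 309843 to 311845 in neutrophils. Retnlg, by contrast, was at 13.7, 10.6 and 13.9 in these 3 libraries. No neutrophil marker was at 0 in any library. Of the other marker lists, 5 of 7 tissue macrophage genes were higher in the Ym1+ library (sums of 229.9 and 118), 3 of 5 eosinophil genes were lower (10.6 and 50.8) and 2 of 4 dendritic cell genes, Flt3 among them, were lower (75.0 and 97.7). The part of these cell types in the receptor differences was not tested.

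Of the 8 genes that encode ligands of these receptors, 2 (Csf1 and Flt3l) reached FPKM 1 in any library. Csf2, Csf3, Il3, Il5 and Il34 were listed at 0 in all 5 libraries and Kitl was at most 0.019. Csf1, which encodes M-CSF, had an FPKM of 4.203 in naïve neutrophils and 3.63 after LPS and of 0.34 to 0.97 in monocytes. Flt3l was above Flt3 in every library, at 9.95 in naïve monocytes, 3.43 in Ym1- monocytes and 5.37 in Ym1+ monocytes, and at 5.52 and 5.69 in naïve neutrophils and neutrophils after LPS.

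Among the Janus kinase and STAT genes, a list not limited to the partners of the receptors described here, Jak3 was higher after LPS. It had an FPKM of 6.42 in naïve monocytes, 19.9 in the Ym1- and 18.6 in the Ym1+ library, and of 4.68 in naïve neutrophils and 28.8 after LPS. Jak3 was the 1 of 9 genes of this list that was higher in each of the 3 comparisons with naïve cells, and 0 were lower. Of all genes, 2.86%, 2.59% and 8.96% were higher in the Ym1- monocyte, Ym1+ monocyte and neutrophil comparisons, and 4.72%, 4.51% and 5.35% lower. Between the lineages, Tyk2 was at 41.8 in naïve monocytes and 8.56 in naïve neutrophils, Stat5a at 28.9 and 11.8, and Jak1 at 53.2 and 109.

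Socs3 and Cish, feedback inhibitors that cytokine receptors induce, had their highest levels in neutrophils after LPS. Socs3 was at 0.91 in naïve monocytes, 13.5 in the Ym1- and 16.1 in the Ym1+ library, and at 8.10 in naïve neutrophils and 48.9 after LPS. Cish was at 13.1 in neutrophils after LPS and 5.12 in naïve neutrophils, and at 0.39 to 0.83 in monocytes. Dusp6, a phosphatase that switches off ERK signalling, had the opposite course, with 27.2 in naïve and 11.5 and 12.0 in Ym1- and Ym1+ monocytes, and 75.4 in naïve neutrophils and 18.5 after LPS. Of the feedback inhibitors tested, 1 of 11 was higher and 1 lower in each monocyte population after LPS, and 2 of 12 were higher and 1 lower in neutrophils. Over all genes, 7.58%, 7.1% and 14.3% were at least 2-fold apart in the Ym1- monocyte, Ym1+ monocyte and neutrophil comparisons, and the counts of this list and of those that follow are to be read beside these shares.

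Of the adaptors and kinases used by receptor tyrosine kinases, 0 of 16 were higher and 1 lower in Ym1- monocytes, 0 of 16 were called in Ym1+ monocytes, and 1 was higher in neutrophils after LPS, with list medians of -0.26, -0.08 and -0.12. Fgr, a Src family kinase, was at 262 in neutrophils after LPS, 238 in naïve neutrophils, 99.0 in naïve monocytes, 78.1 in Ym1- and 129 in Ym1+ cells. Gab2, a docking protein, was at 5.90 and 7.88 in neutrophils after LPS and naïve neutrophils and at 10.7 to 13.3 in monocytes.

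Of the transcription factors of myeloid development, 3 of 11 were higher and 6 lower in naïve neutrophils than in naïve cells of the monocyte lineage, where 10.8% and 42.7% of all genes were. Irf8 and Klf4, which promote monocyte fate, were at 271 and 125 in naïve monocytes, 171 and 74.4 in Ym1- and 127 and 73.4 in Ym1+ monocytes, and at or below 0.71 and 0.29 in neutrophils. Cebpe, which drives late granulocyte maturation, was at 215 in naïve neutrophils, 170.1 after LPS, 10.3 in naïve monocytes, 8.68 in the Ym1- and 17.9 in the Ym1+ library. Cebpa, a regulator of early myeloid differentiation, was lower after LPS in each lineage, at 56.6 in naïve, 24.0 in the Ym1- and 17.2 in the Ym1+ library, and at 9.67 in naïve neutrophils and 3.97 after LPS. Of this list 1 of 12 was higher and 1 lower in Ym1- monocytes, 1 of 11 higher and 3 lower in Ym1+ monocytes, and 1 of 8 higher and 1 lower in neutrophils after LPS.

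**Figure D4:**
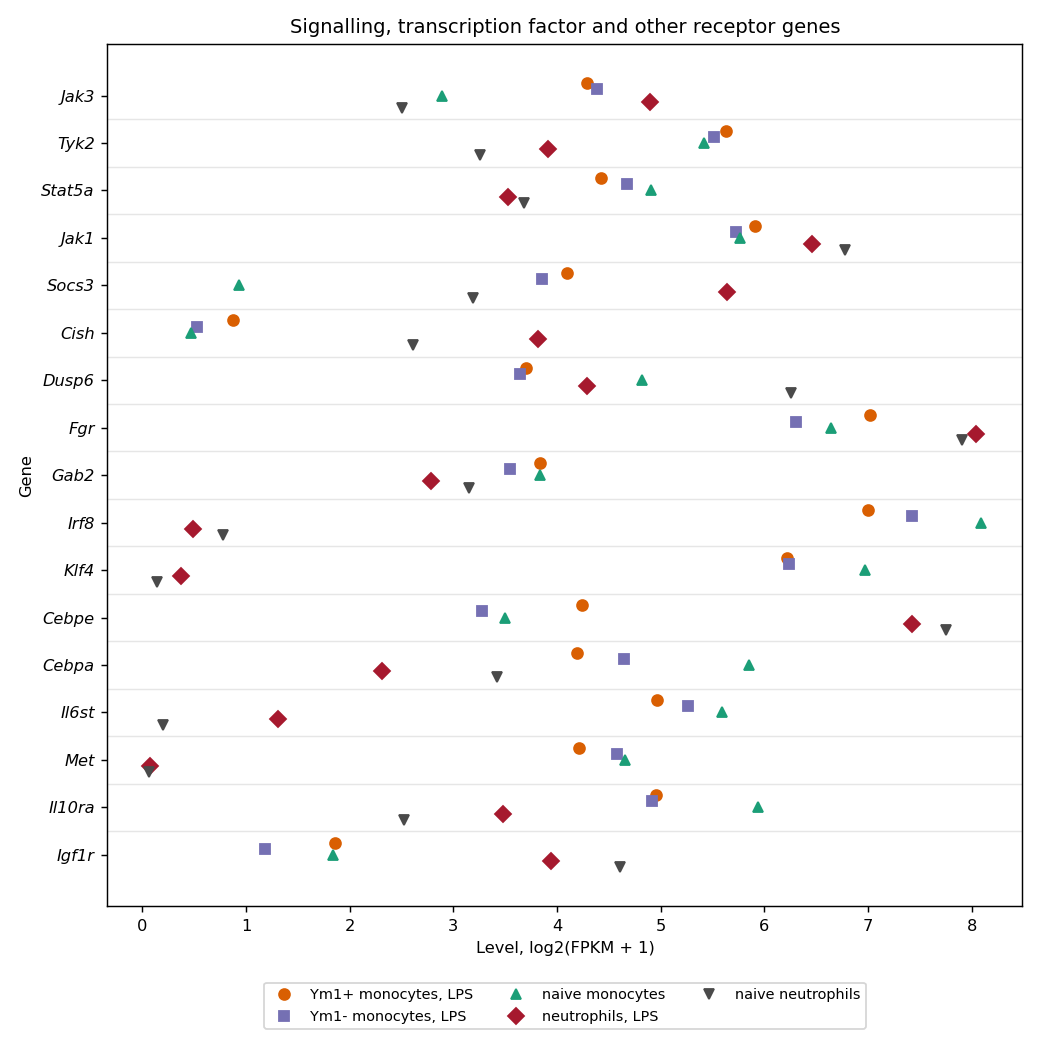
Level of named signalling, transcription factor and other receptor genes as log2(FPKM + 1) plotted horizontally, each point being a single library without replicates. Jak3 and Socs3 lie higher in each library after LPS than in the naïve library of its lineage, Dusp6 and Cebpa lie lower, and Irf8, Klf4, Met and Cebpe separate monocytes from neutrophils.

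Among 34 other cytokine and growth factor receptor genes, 20 reached an FPKM of 1 in at least 1 library, and between the naïve populations 11 of 20 were lower and 1 higher in neutrophils, beside 42.7% and 10.8% of all genes. Met, the receptor of hepatocyte growth factor, was at 24.2 in naïve, 22.8 in the Ym1- and 17.5 in the Ym1+ library, and at 0.046 and 0.055 in naïve neutrophils and neutrophils after LPS. The gene higher in naïve neutrophils was Igf1r, the receptor of insulin-like growth factor 1, at 23.3 against 2.58 in naïve monocytes, and it was at 14.3 in neutrophils after LPS, 1.27 in the Ym1- and 2.61 in the Ym1+ library. Il6st, the signalling chain shared by IL-6 family receptors, was at 47.1 in naïve, 37.3 in the Ym1- and 30.3 in the Ym1+ library, and at 0.15 in naïve neutrophils and 1.48 after LPS. Il10ra, the ligand-binding chain of the IL-10 receptor, was at 60.2 in naïve, 29.1 in the Ym1- and 29.9 in the Ym1+ library, and at 4.75 and 10.1 in naïve neutrophils and neutrophils after LPS. After LPS, 3 of 20 were lower and 1 higher in Ym1- monocytes, 1 of 20 lower and 2 higher in Ym1+ monocytes, and 5 of 16 higher and 0 lower in neutrophils.

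Genes with a course like that of a receptor were sought among the 7166 genes that reached FPKM 10 in any library, by the mean absolute difference of log2(FPKM + 1) over the 5 libraries after centring each gene. Nearest to Csf1r were Mpeg1, a pore-forming protein of macrophages (0.17), Itm2c (0.20) and Adrbk2 (0.21), and 140 genes lay within 0.5. Nearest to Csf3r were Abtb1 (0.10), Agap1 (0.11) and Stat4 (0.12), the last at 28.3 in naïve neutrophils, 12.2 in neutrophils after LPS and 3.34, 1.51 and 1.23 in naïve, Ym1+ and Ym1- monocytes, and 204 genes lay within 0.5. Csf2rb was most like Gyg (0.12), which starts glycogen chains, the glucose transporter gene Slc2a1 (0.14) and Ap3s1 (0.15), and 852 genes lay within 0.5. Slc2a1 was at 46.6 in neutrophils after LPS, 28.3 in Ym1+ and 21.2 in Ym1- monocytes, and 12.9 and 11.9 in naïve neutrophils and naïve monocytes. Csf2ra, whose course is nearly flat, had 2673 genes within 0.5, the nearest being Pttg1ip (0.031), Sh3kbp1 (0.045) and Crot (0.045).

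Kit was most like Frat1 (0.075), Neurl3 (0.17) and Gdpd3 (0.19), with Neurl3 at 117 in naïve neutrophils, 46.3 after LPS, 51.8 in naïve monocytes and 14.8 and 13.4 in Ym1+ and Ym1- monocytes. Flt3 was most like Sesn1 (0.28), Pigh (0.28) and Ppdpf (0.29), with 149 genes within 0.5, against 199 for Kit. These names rest on 5 libraries that differ in depth and describe likeness in level only.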

How the data were processed

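Each of the 5 libraries has a table of FPKM per gene symbol, deposited as the authors made it. The sample records name a strand-specific SureSelect kit, and mm9, TopHat2 2.0.8 and Cufflinks 2.1.1 are listed in the submitters' processing notes. Their options, the annotation and read numbers are not stated there. Because FPKM are scaled values, count models do not apply. Differences of log2(FPKM + 1) and counts of genes at least 2-fold apart were computed with Python 3.11.15, numpy 2.4.6 and pandas 2.3.3, and the steps were tested on simulated data. With 1 library per condition no test was possible. The receptors and gene lists were chosen with earlier results of these data known. From each signalling list at most 4 genes were named, those of largest difference with an FPKM of at least 10 in any library and at least 2-fold apart in any comparison, and for 6 receptors the 3 genes of nearest course. A gene this rule named is not reported here. Marker values beside them were chosen after they were seen. Fragments were estimated from the steps between low values and the longest coding transcript of GENCODE M21. Spi1 was found under its older symbol, and Trac was not found. Alternatives were a pseudocount of 0.1, no filter, an FPKM of at least 5, TPM and median-of-ratios scaling.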

Additional observations from a re-analysis of the deposited data

Results flagged for a closer look

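Counted here were the 8 receptors and a selection of the other genes given with values, where they passed the filter in each comparison of LPS with naïve cells. By sign alone, with no limit on size, 8 of these were lower after LPS in both monocyte populations and higher in neutrophils, and 1 had the reverse. The count takes in differences as small as 0.037 (Flt3l), so it does not measure a difference between lineages. Genes under FPKM 1 in both neutrophil libraries, such as Klf4, Met and Cd34, were not part of that count. Mcpt8 had the same signs and passed the filter, but was not in the selection and so was not counted. The share of all genes with such a course was not computed, and some of the genes were chosen after their values were seen. Each effect rests on 1 library against 1, and both monocyte effects share the naïve library, so the difference between lineages was not tested. Il3ra differed from naïve cells by 1.17 in neutrophils and by -0.85 and -0.95 in Ym1- and Ym1+ monocytes. Il6st differed by 1.11 in neutrophils, from a level of 0.15 FPKM, and by -0.33 and -0.62 in Ym1- and Ym1+ monocytes. Il10ra differed by 0.95 in neutrophils and by -1.02 and -0.98 in Ym1- and Ym1+ monocytes, and Ifngr1 by 1.46, -0.71 and -0.45 in the same order. Flt3l differed by 0.037, -1.30 and -0.78 and the monocyte marker Ccr2 by 0.10, -0.20 and -0.18. Of the other marker genes, Mpo differed by 3.48, -1.24 and -1.69, Hdc by 0.38, -1.73 and -0.77, and Ly6a, in the reverse direction, by -0.52, 1.33 and 0.57. Neutrophils after LPS were higher than naïve neutrophils for 7 of 8 early granulocyte genes (median 3.20), and the part of such cells in these differences was not tested.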

How the results depend on the processing

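Of 19 receptor differences of at least 2-fold, 0 changed direction, and 89 of their 91 values under the alternatives stayed past 2-fold in the same direction. The exceptions were Flt3 in Ym1- against naïve monocytes with median-of-ratios scaling (-0.98) and Csf2rb2 in neutrophils against Ym1+ monocytes with TPM (0.60). Of 130 alternative values of the other differences, 6 passed 2-fold. Beside those given above they were Il3ra in Ym1+ against naïve monocytes (-1.01) and in neutrophils against Ym1+ monocytes (-1.22) with TPM, and Csf2rb in neutrophils against Ym1+ monocytes with median-of-ratios scaling (1.39). The sign turned for 4, all small differences between neutrophils and monocytes of Csf2ra, Csf2rb and Csf2rb2 (for Csf2rb -0.32 with TPM and for Csf2rb2 0.45 with median-of-ratios scaling, both in naïve cells). With an FPKM of at least 5, which leaves out Flt3 or Kit, receptors at least 2-fold apart numbered 0 rather than 1 between Ym1+ and Ym1- monocytes. They numbered 1 rather than 2 between Ym1+ and naïve monocytes and 2 rather than 3 between Ym1- and naïve monocytes. Between neutrophils and Ym1+ monocytes after LPS they numbered 3 rather than 4. Over all genes, counts moved by more than 1.5 times with a pseudocount of 0.1, to 561 from 269 (Ym1+ against Ym1-), 1295 from 812 (Ym1- against naïve), 1221 from 760 (Ym1+ against naïve) and 2071 from 1372 (neutrophils after LPS against naïve), and for Ym1+ against Ym1- also to 425 with TPM and 167 with an FPKM of at least 5. No paired analysis was possible because each condition has 1 library. Depth limits Flt3 in Ym1+ monocytes and neutrophils and Kit in monocytes after LPS, at roughly 13 fragments or fewer.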

Other observations

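The 8 receptors together took an FPKM of 583 in naïve monocytes, 426 in the Ym1- and 478 in the Ym1+ library, 757 in naïve neutrophils and 700.0 in neutrophils after LPS. Within that sum, the beta chains Csf2rb and Csf2rb2 made up 10.1% and 2.24% in naïve neutrophils and 32.5% and 11.4% after LPS. Csf3r made up 61.2% of the sum in naïve neutrophils and 33.8% after LPS. In monocytes, Csf1r made up 39.5% in naïve, 34.9% in Ym1- and 28.8% in Ym1+ cells, and Csf2rb made up 12.4%, 23.6% and 27.2% in the same order.

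In the list of 34 other cytokine and growth factor receptors, the highest level in neutrophils after LPS was that of Il4ra, a chain of the IL-4 and IL-13 receptors, chosen after its values were seen, at 138 FPKM against 25.6 in naïve neutrophils and 15.2 in naïve, 28.8 in the Ym1- and 34.4 in the Ym1+ library. Ifngr1, the ligand-binding chain of the interferon gamma receptor and chosen in the same way, was at 134 in neutrophils after LPS and 47.9 in naïve neutrophils, and at 199 in naïve, 122 in the Ym1- and 146 in the Ym1+ library.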
